A study of Homo sapiens with 5 samples.

Results

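J-domain proteins are the cochaperones that bring client proteins to HSP70 chaperones, and 40 genes that encode them were examined for binding by HSF1 and MYC. The 40 genes, from DNAJA1 to DNAJC30, were chosen by name out of 20033 protein-coding genes of GENCODE 44, by a rule that uses no measured value. They comprised 4 genes of class A, 10 of class B and 26 of class C. The measurements were CUT&RUN peak lists of OVCAR8, an established human ovarian carcinoma cell line in which, according to the study, the HSF1 and MYC genes are both amplified. In CUT&RUN, an antibody directs a nuclease to a protein on DNA in permeabilized cells, and the DNA fragments that are cut free are sequenced. The study asked whether HSF1 and MYC bind the same genes.

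All libraries came from proliferating, untreated OVCAR8 cells, 500000 per reaction, fixed with 1% formaldehyde for 1 minute. The labels list 2 libraries with an HSF1 antibody, 2 with a MYC antibody and 1 with IgG, the control against which all 4 peak lists were called. The label field for genotype holds the antibody, so the groups differ by antibody and not by any change to the cells. OVCAR8 is the only line and this the only condition, and peak lists measure no expression, so its identity could not be checked against marker genes. The labels do not say whether replicates were separate cultures, and the spread between them may be technical. The filtered depth was 8265647 to 10084407 fragments per antibody library, with 9306942 for IgG. The HSF1 lists were called at a p-value of 1e-04 and the MYC lists at 1e-10, so a peak had to pass a stricter threshold to enter a MYC list.

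HSP70 proteins bind unfolded stretches of other proteins and release them in a cycle driven by ATP. The J domain of a cochaperone stimulates the ATPase of HSP70, and nucleotide exchange factors reset the cycle. Class A proteins have a zinc finger next to a region rich in glycine and phenylalanine, class B proteins lack the zinc finger, and class C proteins share only the J domain and serve specialised tasks from clathrin uncoating to mitochondrial import. HSF1 is the transcription factor that induces chaperone genes during heat shock through heat shock elements, repeats of GAA in alternating orientation. MYC, with its partner MAX, binds the E-box CACGTG and is found at many active promoters.

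Each gene was given a window from 5 kb upstream of its annotated start to its end. A gene was counted as bound by a factor when the window held a reproducible peak, which is an interval, merged over overlapping peaks, to which both replicate lists contributed. The sequences under the HSF1 peaks are shown first. Of the 11 reproducible HSF1 peaks at these genes, 3 held the exact heat shock element (27.3%), against 25.2% of all 2141. With up to 1 mismatch, 6 held it (54.5%, against 55.1%), so these peaks were close to the whole list. The element was searched on both strands as GAA, any 2 bases, TTC, any 2 bases and GAA, a stretch of 13 bp with 9 fixed letters. Sequences are from GRCh38, read 5′ to 3′ on the strand of the gene, and capitals mark the element. The DNAJA1 sequence is chr9:33025268-33025296 on the plus strand, with the element 3 bp downstream of the transcription start. The DNAJB6 sequence is chr7:157336783-157336960 on the plus strand and ends 44 bp upstream of the start of the canonical transcript. The DNAJB5 sequence is chr9:34989246-34989458 on the plus strand and ends 287 bp upstream of the start.
DNAJA1: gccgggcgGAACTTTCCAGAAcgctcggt
DNAJB6: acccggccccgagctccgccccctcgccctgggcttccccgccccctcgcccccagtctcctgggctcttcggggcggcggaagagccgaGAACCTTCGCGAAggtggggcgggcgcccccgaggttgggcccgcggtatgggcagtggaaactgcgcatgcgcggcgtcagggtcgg
DNAJB5: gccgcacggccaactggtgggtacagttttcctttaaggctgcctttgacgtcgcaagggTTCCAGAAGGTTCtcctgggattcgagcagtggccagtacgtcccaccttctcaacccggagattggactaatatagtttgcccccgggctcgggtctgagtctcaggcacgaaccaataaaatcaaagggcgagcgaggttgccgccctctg

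The HSF1 peaks at the starts of DNAJB1 and DNAJB4 held no exact element. Both held 13-bp stretches that differ from the pattern at 1 of its 9 fixed letters, in capitals here. The DNAJB1 sequence is chr19:14518408-14518557, read on the minus strand, and contains a pair of such stretches between 160 and 11 bp upstream of the start. The DNAJB4 sequence is chr1:78004771-78004903 on the plus strand, and its stretch lay 1 bp from the HSF1 summit of replicate 1 and 110 bp from that of replicate 2.
DNAJB1: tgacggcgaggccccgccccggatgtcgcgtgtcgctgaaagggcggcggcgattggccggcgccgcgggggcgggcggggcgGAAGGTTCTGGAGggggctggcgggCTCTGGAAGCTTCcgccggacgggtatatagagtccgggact
DNAJB4: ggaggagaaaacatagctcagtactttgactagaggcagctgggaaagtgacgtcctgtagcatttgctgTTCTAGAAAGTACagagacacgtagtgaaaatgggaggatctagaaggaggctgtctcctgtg

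The E-box was the motif searched at MYC peaks. It is shown in capitals for DNAJC16, where it lay within 100 bp of both MYC summits near the gene's start, and for DNAJC8. At DNAJC8 it lay 8 bp downstream of the start, 85 bp from the MYC summit of replicate 1 and 230 bp from that of replicate 2. Another E-box in the same MYC peak, at -21 bp from the DNAJC8 start, is not shown. The DNAJC16 sequence is chr1:15526807-15526836 on the plus strand and the DNAJC8 sequence is chr1:28233004-28233033 on the minus strand.
DNAJC16: acctttaagcgtCACGTGactcccctcggg
DNAJC8: gcgcagaagggtCACGTGgtggctgggccg

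HSF1 bound 8 of the 40 J-domain genes (20%), where 6.41% of all protein-coding genes were bound by the same rule. The 8 genes were DNAJA1, DNAJB1, DNAJB2, DNAJB4, DNAJB5, DNAJB6, DNAJC9 and DNAJC16. MYC bound 24 of the 40 (60%), where the share of all protein-coding genes was 44.6%. The members had somewhat longer windows, with a median of 38058 bp against 32471 bp for all protein-coding genes. Longer windows can take in more peaks, and the part of window length in these shares was not tested.

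Both factors bound 7 members (17.5%, against 5.2% of all protein-coding genes), which were all of the HSF1-bound genes except DNAJB5. Across all protein-coding genes, 1042 of the 1285 genes bound by HSF1 were also bound by MYC. The peaks of both factors overlapped at 6 members (15%, against 3.65%). A further 17 members were bound by MYC only, DNAJB5 by HSF1 only, and 15 by neither factor. Of these 15, 6 had no peak in any of the 4 lists (15%, against 34.7%): DNAJA4, DNAJB13, DNAJC2, DNAJC12, DNAJC22 and DNAJC24. DNAJB13 encodes a protein of the sperm and cilia axoneme and DNAJC2 a cochaperone at the ribosome. A gene with no called peak was below the threshold at this depth, which does not show that the factor was absent.

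The replicate lists differed in how many members they held. A peak lay in the windows of 14 members in HSF1 replicate 1 (35%, against 16.5% of all protein-coding genes) and of 9 in HSF1 replicate 2 (22.5%, against 12.3%). In the MYC lists the numbers were 34 members in replicate 1 (85%, against 63.3%) and 24 in replicate 2 (60%, against 46.2%). The mean was 11.5 ± 3.54 (SD, n = 2) members per HSF1 list and 29 ± 7.07 (SD, n = 2) per MYC list. The difference of 17.5 members had p = 0.333 in an exact permutation test over the 4 lists (two-sided), which is the smallest p that 2 lists against 2 allow. MYC replicate 1 had more members with a peak than MYC replicate 2 although its library was the smallest, with 8265647 fragments against 10084407. Without HSF1 replicate 2, 14 members counted as bound by HSF1, 11 as bound by both factors and 10 as having overlapping peaks. For both factors and for overlapping peaks, the share of all protein-coding genes without that library was not computed.

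**Figure D1:**
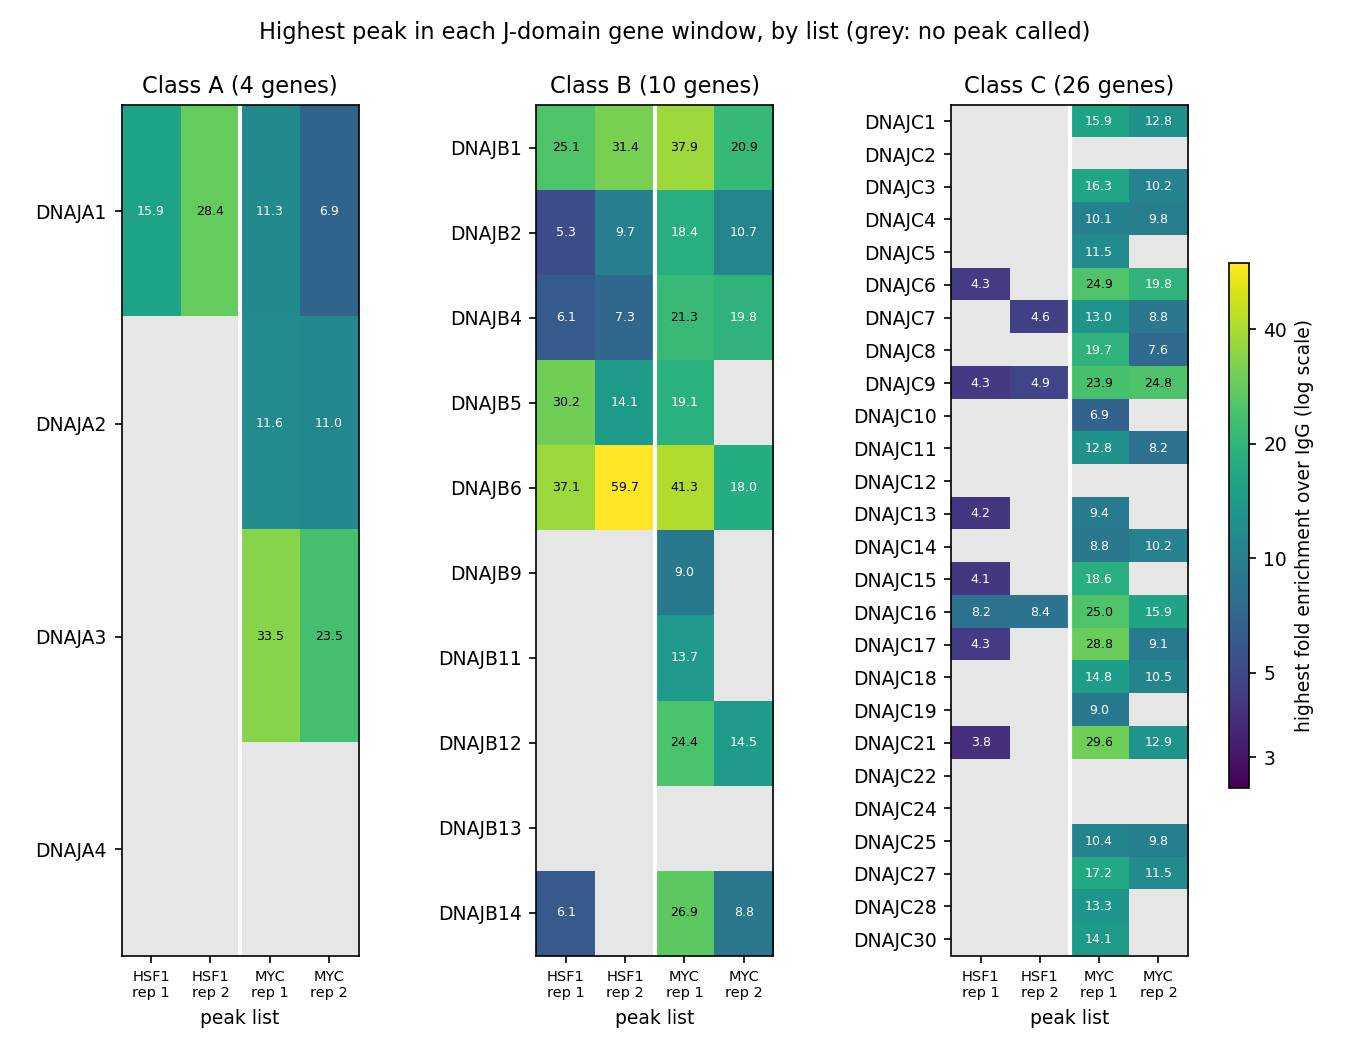
Highest fold enrichment over IgG of any peak in the window of each of the 40 J-domain genes (rows, by class) in the 4 peak lists (columns), on a log colour scale, with grey for no called peak. DNAJB6 had the highest HSF1 value in both lists (37.1 and 59.7), and 10 genes had a MYC peak in replicate 1 and none in replicate 2.

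HSF1 binding was spread unevenly over the classes. It was counted at 5 of 10 class B genes (50%), 1 of 4 class A genes (25%) and 2 of 26 class C genes (7.69%), the last close to the 6.41% of all protein-coding genes. The median windows were 23212 bp in class A, 25830.5 bp in class B and 46213 bp in class C, and their part in the shares was not tested. In the single lists, class B had an HSF1 peak at 6 genes in replicate 1 (60%) and 5 in replicate 2 (50%), and class C at 7 (26.9%) and 3 (11.5%). Class A had 1 gene in each list. The shares of all protein-coding genes were 16.5% in replicate 1 and 12.3% in replicate 2. The class C share of 26.9% in replicate 1 alone fell to 7.69% once a peak of each replicate was required. By the same step the share of all protein-coding genes fell from 16.5% to 6.41%.

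The MYC shares of the classes were closer together. Reproducible MYC peaks lay at 3 of 4 class A genes (75%), 6 of 10 class B genes (60%) and 15 of 26 class C genes (57.7%), against 44.6% of all protein-coding genes. In MYC replicate 1 alone the numbers were 3 (75%), 9 (90%) and 22 (84.6%), against 63.3%. Overlapping HSF1 and MYC peaks were found at 1 class A gene (25%), 3 class B genes (30%) and 2 class C genes (7.69%), against 3.65%. Genes are not replicates of a class, and with 4 and 10 genes a single gene moves the share by a large step, so no test was made between classes.

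**Figure D2:**
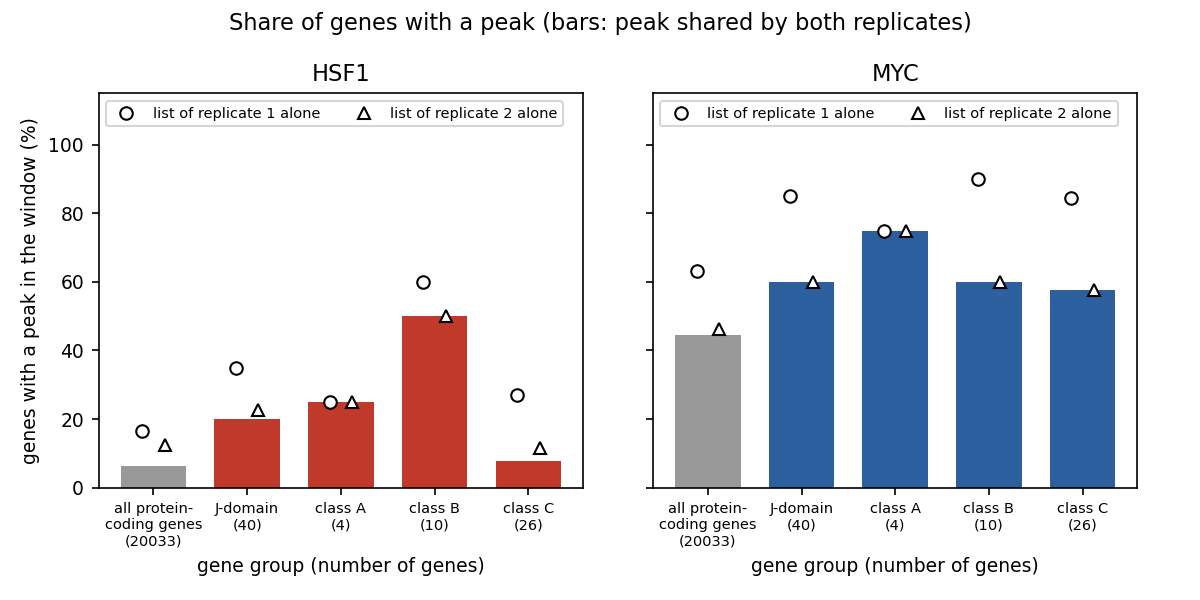
Percentage of genes with a peak in the window for HSF1 (left) and MYC (right), for all protein-coding genes and for the J-domain genes by class, with bars for peaks shared by both replicates and open symbols for each list alone. For HSF1 the class B bar stands at 50% and the class C bar at 7.69%, and for MYC the bars of the 3 classes lie between 57.7% and 75%.

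The class A gene bound by HSF1 was DNAJA1, which encodes a farnesylated cytosolic partner of HSP70. Its HSF1 peak, chr9:33024679-33026136, had a fold enrichment over IgG of 15.9 in replicate 1 and 28.4 in replicate 2 (22.1 ± 8.85, SD, n = 2). These values were at percentiles 97.8 and 98.5 of their lists, with pileups of 32 and 54 fragments. The peak ranked high in both libraries, and its summits lay 110 and 63 bp upstream of the start. The exact element in the sequence above was 119 and 72 bp from them. The MYC peak there covered 997 bp inside the HSF1 peak, and its enrichments of 11.3 and 6.95 were at percentiles 43.7 and 9.17 of the MYC lists. HSF1 thus ranked near the top of its lists at DNAJA1, while MYC was below the median of both of its own. The region also holds the start of APTX, which lay 30 bp from the stronger MYC summit.

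The other class A genes had no HSF1 peak in either list. DNAJA2, a cytosolic cochaperone, had a MYC peak with enrichments of 11.6 and 11.05, with summits 206 and 256 bp upstream of its start. DNAJA3, the mitochondrial member of the class, had MYC enrichments of 33.5 and 23.5, at percentiles 98.2 and 96.5, and was among the 5 members with the highest mean MYC enrichment. Its summits were 236 and 187 bp upstream of its start, but the stronger one was closer to the start of CORO7, at 73 bp. Likewise the stronger DNAJA2 summit was 91 bp from the start of its divergent transcript DNAJA2-DT. DNAJA4 had no peak of either factor.

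In class B, DNAJB6 had the highest HSF1 enrichment of all members. DNAJB6 encodes a cochaperone that holds back the aggregation of polyglutamine and amyloid proteins. Its peak at the start, chr7:157336101-157337702, had enrichments of 37.1 and 59.7 (48.4 ± 16.0, SD, n = 2), at percentiles 99.8 and 99.8, with pileups of 67 and 102 fragments. The summits were 160 and 192 bp upstream of the canonical start, 35 and 67 bp from the exact element in the sequence above. Of the 11 reproducible HSF1 peaks at members, it alone had an exact element within 100 bp of both summits. Weaker reproducible HSF1 peaks flanked it on either side. The upstream one, 2568 and 2666 bp before the canonical start, had enrichments of 6.02 and 5.82. The downstream one in intron 1 had 3.44 and 8.45.

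MYC bound DNAJB6 at 4 places. At the start, chr7:157336455-157337423, its enrichments were 18.0 and 17.0, with summits 112 and 107 bp into the gene, 272 and 299 bp from the HSF1 summits of the same replicate number. The MYC peak with the highest mean enrichment of all members lay inside the gene, in intron 8 at chr7:157404599-157405484, with 41.3 and 18.0 (29.6 ± 16.5, SD, n = 2). An E-box lay 68100 bp downstream of the canonical start, between the MYC summits at 68255 and 68030 bp. HSF1 replicate 1 had a peak there as well, with its summit at 68099 bp and an enrichment of 10.9, but HSF1 replicate 2 had none. The intron 8 site was thus shared by both MYC lists and by 1 of the 2 HSF1 lists. The other MYC peaks, in introns 8 and 9, had enrichments between 7.53 and 14.9.

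DNAJB1 encodes the canonical heat-inducible HSP40 of the cytosol. Its HSF1 peak, chr19:14517313-14518790, had enrichments of 25.1 and 31.4 (28.2 ± 4.47, SD, n = 2) at percentiles 99.2 and 99.0. The summits lay 320 and 192 bp downstream of the start, whereas the paired stretches shown above lie upstream of it, 238 to 391 bp from the summits. Another stretch with 1 mismatch, not shown, lay 461 bp downstream of the start, 147 and 275 bp from the summits. MYC enrichments at the start were 13.8 and 17.0, and the MYC summits were 553 and 173 bp from those of HSF1. A second pair of overlapping peaks lay further upstream, with HSF1 summits 11100 and 10997 bp before the canonical start. There the HSF1 enrichments were 10.6 and 11.1 and the MYC enrichments 37.9 and 20.9, the second highest MYC mean among members at 29.4 ± 11.96 (SD, n = 2). The MYC summits were 11291 and 11331 bp upstream of the DNAJB1 start and the stronger one 9 bp from the start of TECR. The stronger HSF1 summit there was 48 bp from an annotated start of DNAJB1 other than the canonical one. The site fell in the DNAJB1 window because annotated transcripts extend the gene 41994 bp upstream of its canonical start.

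DNAJB5 was the member that HSF1 bound and MYC did not by the rule for both replicates. Its HSF1 peak, chr9:34988869-34989745, had enrichments of 30.2 and 14.1 (22.2 ± 11.3, SD, n = 2), at percentiles 99.5 and 93.6. It was also the strongest of the HSF1 peaks at members that were higher in replicate 1. The summits were 291 and 301 bp upstream of the canonical start and closer to the start of DNAJB5-DT, a divergent transcript. The exact element lay 142 and 132 bp from them, outside the 100 bp searched around summits. MYC replicate 1 had a peak at the same place, with an enrichment of 19.1 at percentile 83.9, and MYC replicate 2 had none.

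DNAJB2 and DNAJB4 had weaker HSF1 peaks. DNAJB2, a neuron-enriched cochaperone that binds ubiquitin, had HSF1 enrichments of 5.29 and 9.74 (7.52 ± 3.15, SD, n = 2), at percentiles 56.4 and 87.3. This HSF1 peak, chr2:219279104-219279782, lay wholly within the MYC peak, whose enrichments were 18.4 and 10.7. DNAJB4, a cytosolic relative of DNAJB1, had HSF1 enrichments of 6.15 and 7.35, with summits 93 and 202 bp upstream of its canonical start. MYC replicate 1 had a peak there too, with an enrichment of 15.7 and its summit at -249 bp from the canonical start, and MYC replicate 2 had none. The reproducible MYC peak lay 25499 and 25541 bp upstream, its stronger summit 102 bp from the start of GIPC2, with enrichments of 21.3 and 19.8. Each HSF1 list had a weak peak within the merged MYC peak, of 2.93 in replicate 1 and 3.15 in replicate 2, which did not overlap each other. That site belonged to the window through annotated transcripts that start 25764 bp before the canonical one. Reproducible peaks of both factors overlapped at DNAJB2 and not at DNAJB4, but DNAJB4 was counted as overlapping without HSF1 replicate 1, without HSF1 replicate 2 or without MYC replicate 2.

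Of the remaining class B genes, DNAJB12 and DNAJB14 were bound by MYC. They encode related proteins of the endoplasmic reticulum membrane that act in protein degradation. DNAJB12 had MYC enrichments of 24.4 and 14.5 over exon 1. DNAJB14 had 26.9 and 8.84, with summits 3852 and 3900 bp upstream, the stronger one 8 bp from the start of H2AZ1-DT. HSF1 replicate 1 had a peak of enrichment 6.11 at the same site upstream of DNAJB14 and another of 4.61 in intron 1, neither found in replicate 2. DNAJB9 and DNAJB11, cochaperones of the endoplasmic reticulum lumen, had MYC peaks in replicate 1 only, with highest enrichments of 9.004 and 13.7.

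Class C had 2 genes with reproducible HSF1 peaks. DNAJC9, which encodes a histone chaperone, had HSF1 enrichments of 4.29 and 4.87, at percentiles 27.8 and 41.5, with pileups of 7 and 8 fragments. This was the lowest HSF1 mean among the reproducible member peaks at 4.58 ± 0.411 (SD, n = 2), with −log10 p-values of 5.44 and 6.53. With HSF1 peaks filtered at 1e-10 as well, the calls at DNAJC9 and DNAJB2 were lost. The HSF1 summits were 121 and 118 bp into exon 1, and the peak, chr10:73247036-73247273, lay wholly within a MYC peak. MYC at DNAJC9 had enrichments of 23.9 and 24.8, at percentiles 92.4 and 97.4, and its replicates differed less than those of the other leading MYC peaks. The HSF1 and MYC summits there were 61 and 12 bp apart. A further MYC peak, with 14.5 and 16.2, reached into the DNAJC9 window only with the edge of its replicate 2 peak. Its summits, 5306 and 5239 bp upstream of the DNAJC9 start, lay outside the window, the stronger one 90 bp from the start of MRPS16.

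DNAJC16, which encodes a protein of the endoplasmic reticulum membrane, had HSF1 enrichments of 8.20 and 8.37 at chr1:15524356-15524881. The summits were 2100 and 2114 bp upstream of its canonical start, and the stronger one was 8 bp from the start of CASP9. MYC enrichments at this site were 25.0 and 15.9, with summits 17 and 71 bp from those of HSF1. MYC also had a peak at the DNAJC16 start, with enrichments of 13.7 and 10.9 and the E-box shown above 88 and 90 bp from its summits. HSF1 replicate 1 alone had a peak there, with an enrichment of 5.35. Another MYC peak, 57904 and 57885 bp downstream of the start and 299 bp from the start of AGMAT, had enrichments of 13.2 and 12.96. When peaks were given only to the gene with the nearest start site, HSF1 was no longer counted at DNAJC16 or at DNAJB5.

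**Figure D3:**
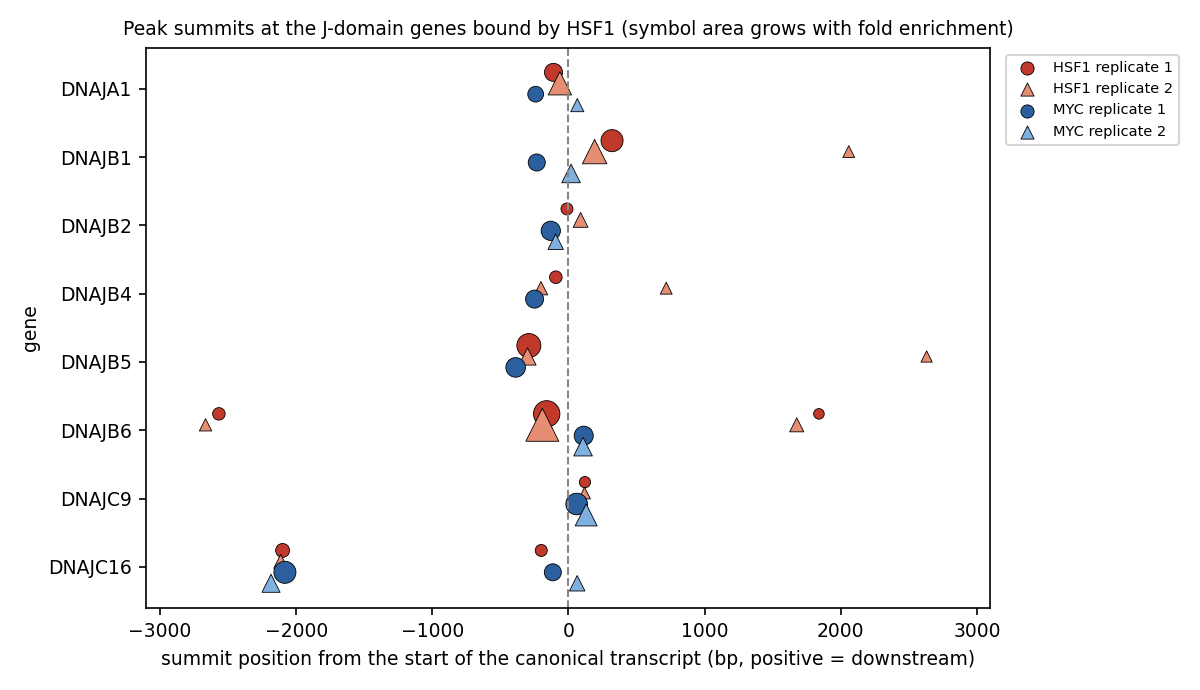
Summit positions of HSF1 (red) and MYC (blue) peaks, in bp from the start of the canonical transcript at the 8 J-domain genes bound by HSF1, for replicate 1 (circles) and replicate 2 (triangles), with symbol area growing with fold enrichment and sites further away not drawn. At DNAJC9 the summits of both factors lie 12 to 61 bp apart within a replicate number, while at DNAJB1 they lie 173 to 553 bp apart.

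Where the HSF1 and MYC peaks overlapped, HSF1 peaks were contained in MYC peaks or shared most of their length. The shared stretch was 100% of the HSF1 peak at DNAJB2, DNAJC9, DNAJC16 and the upstream DNAJB1 site. It was 68.4% at DNAJA1, 60.5% at DNAJB6 and 54.5% at the DNAJB1 start. The 3 genes with shares below 100% were the ones with the tallest HSF1 peaks among the 6, and their HSF1 peaks were also wide: 1458 bp at DNAJA1, 1478 bp at DNAJB1 and 1602 bp at DNAJB6.

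HSF1 peaks of either list lay at 15 members (37.5%, against 21.1% of all protein-coding genes), of which 7 had them in 1 list only (17.5%, against 13.2%). These were DNAJB14, DNAJC6, DNAJC13, DNAJC15, DNAJC17 and DNAJC21 in replicate 1 and DNAJC7 in replicate 2. Their enrichments were between 3.48 and 6.11, and apart from the 6.11 at DNAJB14 each was below the median of its list, 5.00 in replicate 1 and 5.21 in replicate 2. These peaks were thus for the most part low in their lists and were not found in the other library. DNAJC21, a factor in ribosome assembly, had the peak closest to its start, 146 bp upstream with an enrichment of 3.85. DNAJC6, the auxilin that strips clathrin from vesicles, had 2 peaks in replicate 1, of 4.33 and 3.85, far upstream of its canonical start. The one of 4.33 had its summit 222 bp from another annotated start of DNAJC6 and lay within a reproducible MYC peak. DNAJC13, an endosomal protein, and DNAJC15, a mitochondrial one, had theirs inside introns.

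Of the class C genes without a reproducible HSF1 peak, 13 were bound by MYC. DNAJC6 completed the 5 members with the highest mean MYC enrichment, with 24.9 and 19.8 (22.3 ± 3.62, SD, n = 2) at a site 43626 and 43478 bp upstream of its canonical start, inside a longer annotated transcript. Other reproducible MYC peaks of DNAJC6 had 19.5 and 5.93, and 10.3 and 8.21. DNAJC21 followed in mean MYC enrichment, with 29.6 and 12.9 just upstream of its start. DNAJC27, which resembles a small GTPase, had 17.2 and 11.5, and DNAJC1, of the endoplasmic reticulum membrane, had 15.9 and 12.8. DNAJC8 and DNAJC17, both linked to the spliceosome, had 19.7 and 7.61, and 18.0 and 9.12. At these genes replicate 1 was the higher of the pair in each case.

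The remaining MYC-bound class C genes were DNAJC3, DNAJC4, DNAJC7, DNAJC11, DNAJC14, DNAJC18 and DNAJC25. DNAJC3, a cochaperone of the endoplasmic reticulum lumen, had 16.3 and 10.2, with its stronger summit 8 bp from the start of DNAJC3-DT. DNAJC7, which binds both HSP70 and HSP90, had 12.97 and 8.84. DNAJC11, of the mitochondrial cristae complex, had 12.8 and 8.16, and the membrane protein DNAJC18 had 14.8 and 10.5. DNAJC4 and DNAJC14 were exceptions to the direction of the replicates, with 8.03 and 9.79 at the DNAJC4 start and 8.79 and 10.2 at DNAJC14. DNAJC25 had 10.4 and 9.82.

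In 10 members the MYC peaks were in replicate 1 only (25%, against 17.8% of all protein-coding genes), and no member had a MYC peak in replicate 2 only. Besides DNAJB5, DNAJB9 and DNAJB11 these were DNAJC5, DNAJC10, DNAJC13, DNAJC15, DNAJC19, DNAJC28 and DNAJC30. DNAJC5, the cysteine string protein of synaptic vesicles, had an enrichment of 11.5 at 109 bp upstream of its start. DNAJC19, a subunit of the mitochondrial import motor, had 9.004, and DNAJC10, a disulfide reductase of the endoplasmic reticulum, had 6.86. These calls rest on 1 library. DNAJC15 was the highest of the class C genes among them, with 18.6 in intron 1 at 34785 bp from its start, close to its HSF1 peak of replicate 1 at 34979 bp.

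MYC enrichments at members with and without HSF1 had overlapping ranges. For the reproducible MYC peak with the highest mean per gene, the 7 members bound by both factors had median enrichments of 23.9 in replicate 1 and 18.0 in replicate 2. The 17 members bound by MYC only had medians of 16.3 and 10.2. The ranges were 11.3 to 41.3 and 8.03 to 33.5 in replicate 1, and 6.95 to 24.8 and 7.61 to 23.5 in replicate 2. The highest peak is taken over different numbers of peaks per gene, and at DNAJB4 and DNAJB6 it did not overlap a reproducible HSF1 peak. No test was made, since genes in a list are not replicates.

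The replicate libraries differed in the same direction at members as in the whole lists. Of the 11 reproducible HSF1 peaks at members, 9 were higher in replicate 2, with a median ratio of replicate 2 to replicate 1 of 1.19 (range 0.468 to 2.46). Over all 2141 reproducible HSF1 peaks, 57.5% were higher in replicate 2 and the median ratio was 1.07. Of the 35 reproducible MYC peaks at members, 30 were higher in replicate 1, with a median ratio of 0.70 (range 0.305 to 1.23). The share over all 11756 MYC peaks was 82.1% and the median ratio 0.719. The members' MYC peaks thus differed between replicates about as the whole lists did. The summits of the replicates were close together, with median gaps between replicates of 98 bp (3 to 163 bp) for HSF1 and 67 bp (5 to 799 bp) for MYC.

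**Figure D4:**
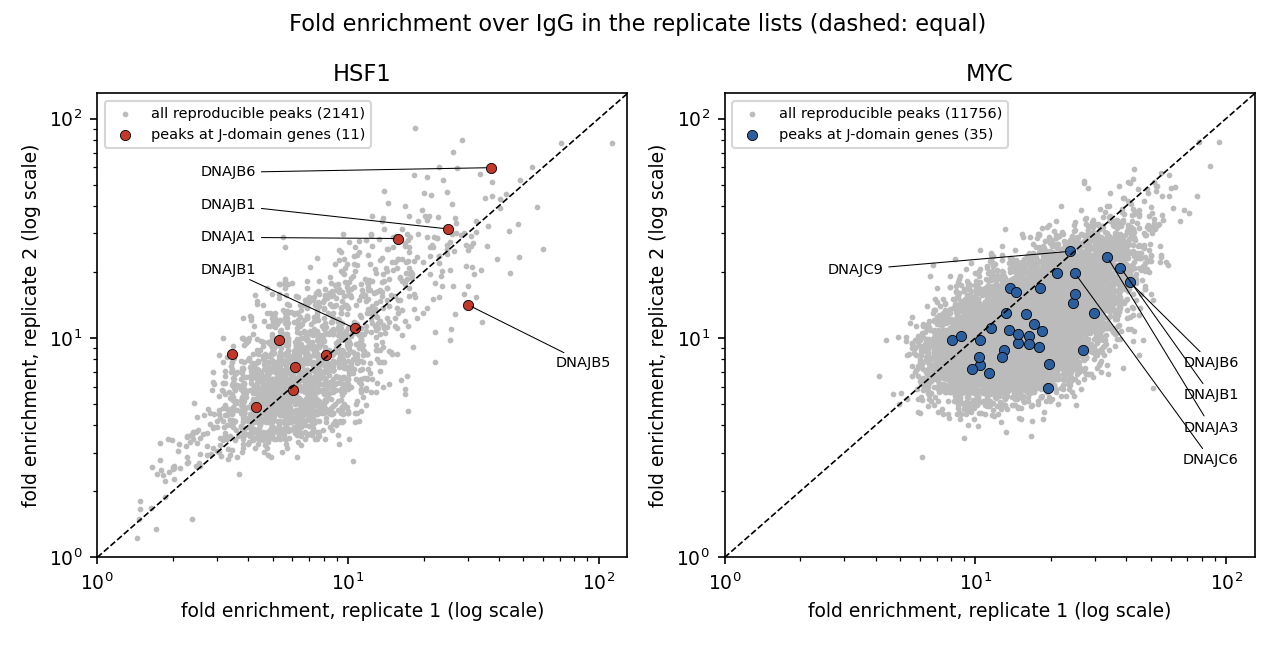
Fold enrichment over IgG in replicate 1 against replicate 2 on log axes for all reproducible peaks (grey) and for those at J-domain genes (red for HSF1, blue for MYC), with the 5 highest member peaks by mean named and the dashed line at equal values. For HSF1, 9 of 11 member peaks lie above the line, and for MYC, 30 of 35 lie below it.

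The stronger summit was within 1000 bp of the canonical start in 7 of the 11 reproducible HSF1 peaks and 21 of the 35 MYC peaks at members. Of all member peaks in the single lists, 34.6% in HSF1 replicate 1, 50% in HSF1 replicate 2, 54.2% in MYC replicate 1 and 62.2% in MYC replicate 2 lay that close. At 7 of the 8 HSF1-bound members and 20 of the 24 MYC-bound members, both replicate summits of a reproducible peak were within 1000 bp of the canonical start. Counted within 1000 bp of any annotated start of the gene, reproducible HSF1 peaks lay at 7 members, where the share of all protein-coding genes was 3.22%. By the same count MYC peaks lay at 23 members, against 39.5%. The nearest annotated start belonged to another gene at 3 of the 11 HSF1 peaks and 13 of the 35 MYC peaks, among them APTX, CORO7, TECR, CASP9 and GIPC2. The lists do not show which of the neighbouring genes a peak acts on. Distances to canonical starts and nearest genes were counted at members only, without the share over all peaks. These counts therefore do not tell the members from the whole lists.

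The exact heat shock element lay within 100 bp of the strongest summit in 2 of the 11 HSF1 peaks at members (18.2%), at DNAJA1 and DNAJB6, and in 10.1% of all 2141 HSF1 peaks. In the whole merged peak it was present in 3 of 11 (27.3%), with DNAJB5 added, against 25.2%. With up to 1 mismatch, 2 of 11 (18.2%) held it within 100 bp of the strongest summit, against 25.4% of all, and 6 of 11 in the whole peak (54.5%), against 55.1%. The member peaks were wider, with a median of 877 bp against 546 bp, and the part of width in the shares over whole peaks was not tested. In the RefSeq promoters of GRCh38.p14, from 250 bp before to 50 bp after a start, the exact element was present in 2 of the 37 members with an entry (5.41%), DNAJA1 and DNAJB6, and in 0.487% of 27305 promoters. With up to 1 mismatch it was present in 3 of 37 (8.11%), with DNAJC15 added, against 6.36%. This count left out the stretches shown above at DNAJB1, 52 and 77 bp upstream of the canonical start, and at DNAJB4, 98 bp upstream. Whether these genes lacked an entry or had another RefSeq start was not examined, so the count does not show that their promoters lack the element.

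The E-box lay within 100 bp of the strongest summit in 3 of the 35 MYC peaks at members (8.57%), against 8.31% of all 11756 MYC peaks. These were 1 peak at DNAJC8 and 2 at DNAJC16, and without MYC replicate 2 an E-box was counted at 4 members. In whole peaks it was present in 8 of 35 (22.9%), against 30.4%. The variant CACGCG lay near 7 of 35 summits (20%), against 11.2%. In the RefSeq promoters the E-box was present in 4 of 37 members (10.8%), against 7.43% of all. The 4 were DNAJC8 and DNAJC16, which MYC bound, DNAJB9, which had a MYC peak in replicate 1 only, and DNAJC12, a cochaperone for aromatic amino acid hydroxylases, which had no peak. A motif match describes letters in a window and is not evidence of a site in use.

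The rest of the HSP70 system, 29 genes of HSP70 chaperones, nucleotide exchange factors and other cochaperones, is given beside the J-domain genes. HSF1 bound 14 of the 29 (48.3%), against 20% of the J-domain genes and 6.41% of all protein-coding genes. MYC bound 26 (89.7%), against 60% and 44.6%, and the peaks overlapped at 11 (37.9%), against 15% and 3.65%. The HSF1-bound genes were HSPA1A, HSPA1B, HSPA1L, HSPA4, HSPA4L, HSPA6, HSPA8, HSPA9, HSPH1, BAG2, BAG3, BAG5, ST13 and STIP1, with HSPA1L sharing its peak with HSPA1A. HSPA1A and HSPA1B are near-identical copies, so their peaks are uncertain as to which gene the reads came from. The highest HSF1 enrichments among them were 70.6 and 77.6 at ST13, which encodes the HSP70-interacting protein HIP, above the 37.1 and 59.7 of DNAJB6. HSPA8, the constitutive cytosolic HSP70, had 42.7 and 45.5. No test was made between the lists. Of 9 further genes with a J domain, MYC bound SEC63 alone by the rule for both replicates (11.1%, against 44.6% of all protein-coding genes). In MYC replicate 1, 5 of the 9 had a peak (55.6%, against 63.3%). DNAJB3, 1 of the 9, is annotated as a pseudogene.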

How the data were processed

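Per the labels and the study's methods, the authors demultiplexed the reads with bcl2fastq 2.20.0, trimmed them, aligned them to GRCh38 with Bowtie 2 and called peaks in each library with MACS 2.2.9.1 against 1 IgG library, without pooling replicates. The deposited values are the summit signal (pileup), the fold enrichment, a ratio to the local IgG background, and −log10 p-values. The deposited q-value column holds values although the headers say that none were calculated, and it was not used. Read counts were not used, as the files give none, and fold enrichments describe peaks within a list. The IgG library entered only through the authors' calls. The headers name the IgG library as a replicate of a set, whereas the labels list 1 IgG control.

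The members and the gene lists were chosen with earlier results of these data known. Lists were read with pandas 2.3.3 and numpy 2.4.6 in Python 3.11.15, sequences with pysam 0.24.0, and figures were drawn with matplotlib 3.10.9. All 40 members were found in GENCODE 44. Replicate peaks that shared at least 1 bp were merged, and an interval counted for a gene when it shared 1 bp with the window from 5 kb upstream to the gene end. The canonical start is that of the Ensembl canonical transcript. Percentiles are of fold enrichment within a list. Described most fully are members bound by HSF1, members with overlapping peaks and the 5 members with the highest mean MYC enrichment. Some of their peaks that were found in 1 list only are not given. Members with an HSF1 peak in 1 list or with no peak, and HSF1-bound genes of the HSP70 system, are named. The HSF1 result for the further J-domain genes is not reported here. Other members, and other genes near a peak, were named after their values were seen. The exact permutation test compared the number of members with a peak per list and was two-sided with a threshold of 0.05. On simulated data over 20033 genes, all of 200 windows with planted peaks were recovered in each of 20 runs, and at most 1 of 100 peaks placed in a single list was called. The planted peaks overlapped between the lists by construction. The simulation thus checks the counting only and does not measure how sensitive or specific the calls are. Alternatives covered how replicates are combined, each library left out, thresholds, windows, gene assignment and motif definitions.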

Additional observations from a re-analysis of the deposited data

How the results depend on the processing

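Of 111 values under other settings, 95 were taken as unchanged and 16 moved further. Unchanged means within 1.5 times the reported count or, for the difference between MYC and HSF1 lists, still positive. Counts cannot change sign, so only that difference could have, and it did not. With peaks of either replicate, HSF1 was counted at 15 members (37.5%, against 21.1% of all protein-coding genes), 8 of class C. Both factors were counted at 15, overlapping peaks at 13 and an E-box at 4. For these counts the share of all protein-coding genes or peaks was not computed. The same holds below at 1e-10, by nearest start site and with the window from the canonical start. It was also not computed for both factors or overlapping peaks with a library left out. These counts therefore do not tell the members from the whole lists. When each library was left out in turn, the count for HSF1 ranged from 9 to 14, for class C from 3 to 7, for both factors from 7 to 11, for overlapping peaks from 6 to 10, for MYC from 24 to 34 and for the E-box from 3 to 4. The high ends came without HSF1 replicate 2 and, for MYC and the E-box, without MYC replicate 2. At 1e-10 for HSF1, 6 members remained bound, without DNAJB2 and DNAJC9, and 1 of class C. Class C also had 1 gene when peaks had to lie within 1000 bp of a start site, without DNAJC16, and 1 when each peak went to the nearest start site. Under the nearest start site MYC was counted at 1 class A gene, since DNAJA2 and DNAJA3 were lost, and at 20 members in all. The E-box was counted at 7 members in whole peaks and at 8 with CACGCG allowed. The cause was not tested beyond what each setting changes by construction. The difference of 17.5 members per list ranged from 12.5 to 22.5 without single lists. The labels give replicate numbers but no shared batch, and the samples share only a number. With the replicate number as a block the difference was 17.5 with p = 0.5 in the exact permutation test. After the data were seen, 2 settings were added. With the window set from the canonical start, HSF1 was counted at 8 members and MYC at 22, without DNAJB4 and DNAJC6. With 1 mismatch allowed, the heat shock element was counted at 2 members. With 2 libraries per factor and peaks called separately, a gene near the threshold can be called in one library and missed in the other, and the lists give no value below the threshold.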
